A study of Mus musculus with 24 samples.

Results

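Ubd, Procr, Upp1, AA467197, Pcp4l1 and Nxpe5 are 6 mouse genes seldom used as markers of macrophage polarization. They were chosen by their difference between M1 cultures and naive M0 cultures on these same arrays, 4 of them because they were high in M1 and 2 because they were low there. They are 6 of 46557 genes and unnamed probes on the array, and 8 of its 55681 probes. The values of that comparison therefore describe the choice and carry no test. The other comparisons asked how the same genes behaved in M2 cultures, after sepsis and in tumour-associated macrophages (TAM).

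Each group had 4 arrays, all of RNA from C57BL/6 males aged 10 weeks. M1 cultures were bone marrow cells of naive mice grown for 7 days in medium with 20% L929 supernatant and given IFN-gamma at 50 ng/mL and LPS at 10 ng/mL on day 3. M2 cultures were grown in the same way and given IL-10 at 20 ng/mL on day 3. TAM post-sepsis were macrophages taken from tumours of mice 14 days after sepsis induction, on a Percoll gradient with 1 h of adhesion, and TAM naive were their counterparts from mice without sepsis. M0 post-sepsis were unpolarized cultures, in the same medium, of marrow from mice 14 days after sepsis induction, and M0 naive were those of naive marrow. The labels name neither the tumour line nor the way sepsis was induced. Per the series' design text, the 4 TAM samples of a group were selected by absorbance ratios from 12 samples of 3 experiments, and the 4 marrow samples of a group from 2 experiments with 3 samples each. Which sample came from which experiment is not given, so p-values measure the spread between selected samples, which may in part be technical.

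One TAM naive array, replicate 2, was excluded by the submitters for low RNA amount and quality and was left out, which gives 23 arrays. A level is the log2 processed intensity of a gene's probe minus the 75th percentile of its array, so that 0 marks that percentile. Levels of different probes are not compared with each other. The 75th percentile lay between 236 and 694 intensity units, 57.4% to 70.0% of spots were well above background, and no spot was saturated. Arrays of 1 group correlated at 0.898 to 0.991 over 32371 genes. All 17 tested genes of an M1 activation list of 18 measured higher in M1 than in M0 naive, with a median log2 difference of 5.44. An IL-10 response list of 12 genes did not set M2 apart in the same way: of 11 tested, 1 was higher and 3 were lower than in M0 naive, with a median of -0.19. The 10 macrophage markers were well above background on all 23 arrays. The TAM arrays also carried all 6 melanocyte and all 6 fibroblast markers, and 4 to 5 of 6 erythroid markers.

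IFN-gamma and LPS together drive macrophages into a state of classical activation, in which genes of antigen presentation, nitric oxide synthesis and inflammation are switched on. Ubd encodes FAT10, a ubiquitin-like protein that is attached to other proteins by the enzymes Uba6 and Ube2z and sends them to the proteasome. Procr encodes the endothelial protein C receptor, which presents protein C to the complex of thrombin and thrombomodulin and so takes part in anticoagulation. Upp1 is a uridine phosphorylase that splits uridine into uracil and ribose 1-phosphate. AA467197, also named Nmes1, is related to Ndufa4, a subunit of cytochrome c oxidase, and its transcript contains the hairpin of miR-147. Pcp4l1 is related to Pcp4, a small calmodulin regulator of neurons. Nxpe5 belongs to a family of proteins that share a domain with neurexophilins.

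In the RefSeq annotation of GRCm38.p6, Ubd lies at chr17:37193892-37196101, Procr at chr2:155751125-155755478, Upp1 at chr11:9118008-9136170, AA467197 at chr2:122637887-122641076 and Nxpe5 at chr5:138207499-138251876, all on the plus strand, and Pcp4l1 at chr1:171173264-171196268 on the minus strand. On mm9, the build of the file headers, the probes sit at chr17:37332688-37332747 for Ubd, chr2:155580945-155581004 for Procr, chr11:9036114-9036173 for Upp1, chr2:122466640-122466699 for AA467197, chr1:173103423-173103482 for Pcp4l1 and chr5:138693044-138693103 for Nxpe5. The second probes of Upp1 and Nxpe5 sit at chr11:9018223-9018282 and chr5:138671236-138671295. The 2 builds were not converted into each other.

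The promoters of the 4 genes that were high in M1 are shown because these genes moved together in the comparison that chose them. The sequences are from RefSeq, build GRCm38.p6, 5′ to 3′ on the strand of the gene, and end just before its annotated start. The Procr window is the 158 bases that lie before the start of the gene. All 6 genes matched the table, which gives 3 starts for Upp1, and the most upstream one is shown. Capitals mark matches to 4 motifs searched on both strands of the 250 bases before each start: the NF-kB consensus, GAS (TTCNNNGAA), ISRE (GAAANNGAAA) and AP-1 (TGANTCA).
Ubd, chr17:37193642-37193891, plus strand: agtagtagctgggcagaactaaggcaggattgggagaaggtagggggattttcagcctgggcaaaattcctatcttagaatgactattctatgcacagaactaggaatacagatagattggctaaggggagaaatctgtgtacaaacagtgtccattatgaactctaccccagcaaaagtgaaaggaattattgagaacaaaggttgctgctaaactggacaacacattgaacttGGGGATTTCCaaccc
Procr, chr2:155750967-155751124, plus strand: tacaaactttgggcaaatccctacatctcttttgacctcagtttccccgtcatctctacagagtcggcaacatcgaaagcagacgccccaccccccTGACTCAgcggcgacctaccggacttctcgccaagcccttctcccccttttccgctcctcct
Upp1, chr11:9117758-9118007, plus strand: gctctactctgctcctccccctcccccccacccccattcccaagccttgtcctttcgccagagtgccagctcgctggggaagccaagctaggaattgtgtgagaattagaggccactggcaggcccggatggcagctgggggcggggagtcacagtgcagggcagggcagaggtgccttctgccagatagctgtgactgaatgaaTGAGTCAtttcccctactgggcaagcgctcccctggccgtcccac
AA467197, chr2:122637637-122637886, plus strand: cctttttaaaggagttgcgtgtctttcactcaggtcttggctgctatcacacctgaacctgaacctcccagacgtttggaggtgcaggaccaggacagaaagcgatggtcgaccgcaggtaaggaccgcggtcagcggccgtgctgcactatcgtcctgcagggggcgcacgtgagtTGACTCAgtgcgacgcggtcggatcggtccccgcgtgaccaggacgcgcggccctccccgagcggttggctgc

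Ubd had 1 match to the NF-kB consensus, GGGGATTTCC, which began 15 bases before the start. Procr, Upp1 and AA467197 each had 1 AP-1 match, TGACTCA in Procr and AA467197 and TGAGTCA in Upp1, and none of the other motifs. Before the third annotated start of Upp1 there was no AP-1 match. The windows of Pcp4l1 and Nxpe5, the 2 genes that were low in M1, held none of the 4 motifs. The Nxpe5 window, chr5:138225654-138225903, lies inside the gene as placed above, before a start within it. The bases before chr5:138207499 were not searched. Of 32851 promoter windows in the table, 7.25% held the NF-kB consensus, 7.02% GAS, 2.98% ISRE and 6.75% AP-1. A match describes the letters of the window and is not evidence that a factor binds there.

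The hairpin of miR-147 lies inside AA467197 on chr2, and the array probe of AA467197 reads the host transcript, not the miRNA. Its mature 5p arm is shown because the AA467197 transcript carries it, with the seed, bases 2 to 8, in capitals.
mmu-miR-147-5p, chr2:122640814-122640837, plus strand: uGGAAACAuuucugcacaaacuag

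Ubd, the FAT10 gene, measured 8.20, 7.99, 8.04 and 8.32 in M1 cultures, against -3.83, -4.16, -4.44 and -5.20 in M0 naive. The 4 M1 arrays lay far above all other 19 arrays, and 2 of the 4 M0 naive arrays were not well above background, so the difference of 12.54 has an uncertain size. In M2 cultures Ubd was at -5.21, -5.98, -6.60 and -6.25, and in M0 post-sepsis at -4.35, -5.53, -3.84 and -6.28, and none of these 8 arrays was well above background. Ubd therefore had no test between M2, M0 post-sepsis and M0 naive. In TAM post-sepsis it measured -3.23, -5.50, -2.17 and -4.51, against -3.73, -3.59 and -4.77 in TAM naive. Those 2 groups overlapped, and 3 of 4 and 2 of 3 of their arrays were well above background. Below M1, each neighbouring pair of the 5 other groups overlapped in the order of means, and their means differed by less than the spread. Groups further apart in that order could separate. All M2 arrays lay below all M0 naive and TAM naive arrays, at the closest -5.21 in M2 against -5.20 in M0 naive, but no M2 array was well above background.

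Procr, the protein C receptor gene, was the steadiest of the 6 in M1 cultures, at 8.76, 8.71, 8.71 and 8.82, against 0.85, 0.45, 0.33 and 0.59 in M0 naive. The groups did not overlap, and their means differed by 8.19. M2 cultures stood between them, at 1.53, 1.38, 1.35 and 1.42, all above the highest M0 naive array. M0 post-sepsis gave -0.13, 0.44, -0.48 and 0.49 and overlapped M0 naive. TAM post-sepsis had 2.71, 2.16, 3.37 and 2.81, against 2.17, 3.19 and 2.60 in TAM naive. All 7 TAM arrays lay above all 12 M2 and M0 arrays and below M1, and the TAM groups overlapped each other.

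Upp1, the uridine phosphorylase gene, measured 4.82, 4.33, 4.50 and 4.55 in M1 cultures, against -2.44, -2.57, -2.88 and -2.69 in M0 naive, a difference of 7.20 without overlap. M2 cultures gave -2.26, -1.79, -2.08 and -1.77, and M0 post-sepsis gave -1.95, -2.08, -1.49 and -2.21. These 2 groups overlapped each other, and each array of either lay above all 4 M0 naive arrays. TAM post-sepsis had 0.36, -0.24, -0.14 and 0.50, against 0.87, 2.40 and 0.23 in TAM naive. The TAM arrays stood between M1 and all M0 and M2 arrays, and TAM naive replicate 3 was the highest of them. The 2 TAM groups overlapped. A second Upp1 probe was well above background only on the 4 M1 arrays, where it read at least 5.09-fold higher than in M0 naive.

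AA467197, the Ndufa4 relative, measured 8.77, 8.53, 8.67 and 8.86 in M1 cultures, against 1.80, 1.33, 0.96 and 1.51 in M0 naive, a difference of 7.31 without overlap. M2 cultures gave 5.09, 4.89, 4.86 and 5.06. It was the one gene of the 4 whose M2 arrays all stood above every TAM and M0 array. M0 post-sepsis was lowest, at -0.09, 0.51, -0.25 and 0.32, with no array as high as any M0 naive array. TAM post-sepsis had 1.20, 0.45, 1.54 and 0.83, against 0.94, 2.11 and 0.79 in TAM naive, and both TAM groups overlapped M0 naive.

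Pcp4l1, the Pcp4 relative, was on the other side, at -5.90, -4.36, -5.62 and -5.11 in M1 cultures, against 4.56, 4.34, 3.70 and 4.29 in M0 naive. No M1 array was well above background, and the level there was at least 338-fold lower. With normexp background correction the difference was -6.41, less than that bound. Normexp here adds an offset of 50 to each intensity, which shrinks differences from dim signal, so it does not test the bound. M2 cultures lay in between, at -0.68, -1.06, -0.59 and -0.88. M0 post-sepsis gave 3.98, 4.60, 3.77 and 4.11 and overlapped M0 naive. TAM post-sepsis had -3.08, -3.34, -2.94 and -3.59, against -2.23, -1.85 and -3.23 in TAM naive. The TAM arrays fell between M2 and M1, and the 2 TAM groups overlapped.

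Nxpe5 measured -4.95, -5.10, -5.65 and -4.87 in M1 cultures, none of them well above background, against 3.30, 2.87, 2.39 and 2.85 in M0 naive, which makes it at least 139-fold lower. With normexp and its offset the difference was -5.07, again less than that bound, which it does not test. M2 cultures gave 2.75, 2.55, 2.66 and 2.79, within the range of M0 naive. M0 post-sepsis was highest, at 3.97, 4.40, 3.56 and 3.92, above every M0 naive array. TAM post-sepsis had -0.42, -2.90, -2.03 and -1.04, against -3.53, -2.08 and -3.03 in TAM naive, and TAM post-sepsis replicate 2 was inside the TAM naive range. A second probe, annotated to a cDNA clone at another position of Nxpe5, did not show the M1 difference: it averaged -3.76 in M1 and -3.66 in M0 naive, with overlap. It was dim in every group, with mean intensities from 18.7 to 36.3 units, so it could show little of a drop. It was well above background on 2 of 4 M1 arrays and on all 4 M0 naive arrays. That probe also overlapped between the groups in the other 5 comparisons, with -0.85 for M2 and 0.52 for M0 post-sepsis against M0 naive, -1.37 for M2 and -1.22 for TAM post-sepsis against M0 post-sepsis, and -0.75 for TAM post-sepsis against TAM naive, where the brighter probe measured 1.28. The results on Nxpe5 rest on the brighter probe alone.

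**Figure D1:**
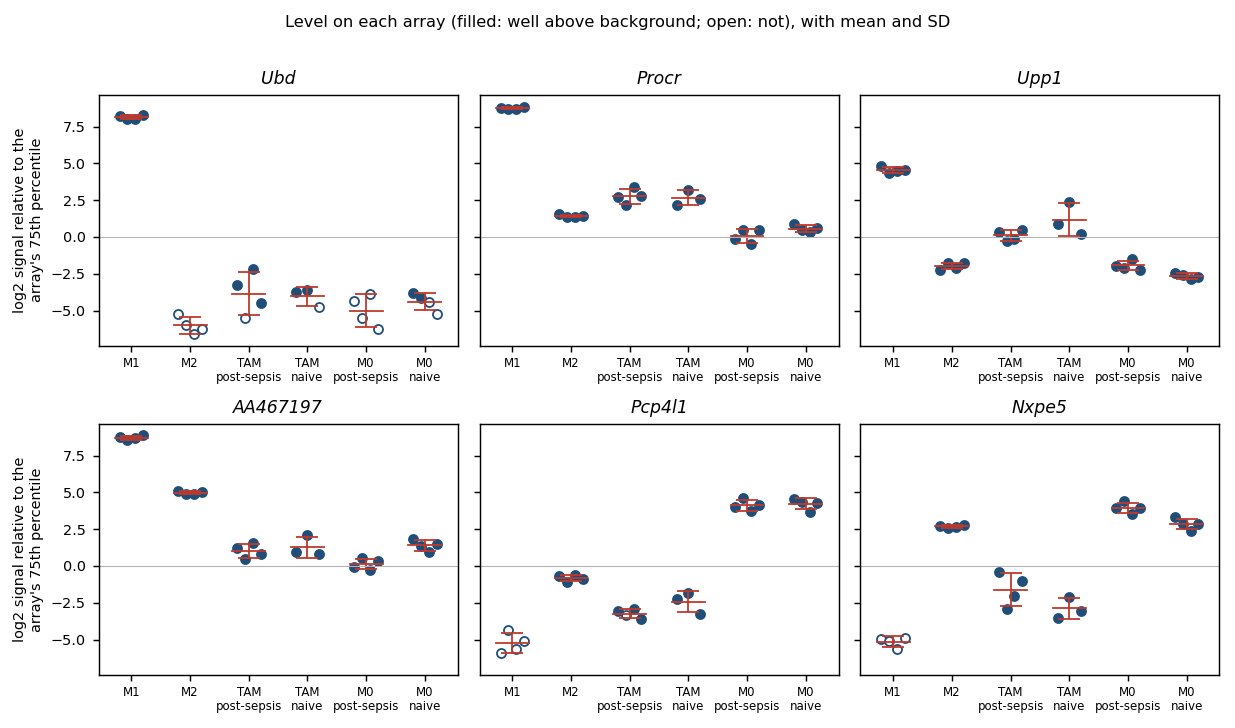
Level of each of the 6 genes on each of the 23 arrays, as log2 signal relative to the array's 75th percentile. Red lines give the mean and SD of each group (n = 4, and n = 3 for TAM naive), and open circles are arrays not well above background. Ubd, Procr, Upp1 and AA467197 are highest in M1, and Pcp4l1 and Nxpe5 lowest.

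All 6 genes had M1 and M0 naive arrays that did not overlap, which the choice of the genes fixed. For orientation, 26.8% of 29510 genes passed an adjusted p of 0.05 in that comparison, 12.5% higher and 14.3% lower in M1. The summed level of the 10 macrophage markers, in multiples of the 75th percentile, was 1226 to 1380 in M1 and 1668 to 2127 in M0 naive. That of 8 neutrophil markers was 41.7 to 67.1 in M1 and 195 to 243 in M0 naive, where it was led by S100a9 (mean 7.38, against -0.88 in M1). Of the 10 macrophage markers 5 were lower and 1 was higher in M1. Of the 8 neutrophil markers 6 were lower and 1, Ly6g, was higher, at a mean of 4.37 against -2.09 in M0 naive. Their part in the differences was not tested.

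The genes around the 6 are described next by lists of partners, which were chosen with earlier results of these data known. Each list's counts stand against the 12.5% and 14.3% of all genes given above and the median log2 difference of -0.12 over all genes. Values are M1 minus M0 naive on the log2 scale with the SE of the limma fit and limma's adjusted p (n = 4 each).

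Of a list of genes of FAT10 conjugation, Isg15 conjugation and the immunoproteasome, called the FAT10 list below, 15 of 16 were on the array. Of these, 14 were tested, 11 were higher and none was lower in M1, with a median of 1.23. Besides Isg15 the list held Uba7, Ube2l6, Herc6 and Usp18, which attach or remove Isg15. Its counts are therefore not those of FAT10 conjugation alone. Isg15, another ubiquitin-like modifier, was higher by 3.72 ± 0.22 (adjusted p = 4.0e-09), and Usp18, which removes it, by 2.52 ± 0.195 (adjusted p = 7.4e-08). Herc6, the ligase of Isg15 in mice, was higher by 3.46 ± 0.32, and the immunoproteasome subunit Psmb9 by 1.85 ± 0.23 (adjusted p = 5.0e-07 and 1.2e-05). Of the enzymes that attach FAT10 itself, Ube2z was higher by 1.06 ± 0.23 (adjusted p = 0.002), while Uba6 measured 0.25 ± 0.31 (adjusted p = 0.65).

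The protein C and coagulation genes went both ways: of 15 tested of 20, 5 were higher and 5 lower, with a median of -0.29. Thbd, the thrombomodulin that works beside Procr, was lower in M1, at -2.44 against 0.39 in M0 naive (-2.83 ± 0.21, adjusted p = 5.5e-08). Pros1, the cofactor of activated protein C, measured -4.03 ± 0.27, the related Axl and Mertk ligand Gas6 -5.34 ± 0.22, and the clotting factor F13a1 -5.37 ± 0.28, all lower in M1. Sphk1, a sphingosine kinase, was higher by 4.90 ± 0.35 (adjusted p = 2.6e-08). The adjusted p of Pros1, Gas6 and F13a1 lay between 6.0e-11 and 1.8e-08.

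Of the uridine and pyrimidine genes, 16 of 21 were tested, of which 6 were higher and 4 lower, with a median of 0.19. The nucleoside transporter Slc28a2 was higher by 4.31 ± 0.26 and the nucleotide kinase Cmpk2 by 2.26 ± 0.21 (adjusted p = 4.3e-09 and 5.8e-07). Dpys, which acts in the breakdown of uracil, measured 3.82 ± 0.31 higher, with 2 of 4 M0 naive arrays above background. Tk1, the thymidine kinase of dividing cells, was lower by a log2 difference of -5.65 ± 0.23 (adjusted p = 5.8e-11). Upp2, the other uridine phosphorylase, was too dim to be tested.

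Of the cytochrome c oxidase genes, 16 of 17 were tested, of which 1 was higher and 4 were lower, with a median of -0.08. Ndufa4, the relative of AA467197, measured 0.19 ± 0.22 (adjusted p = 0.63), with 4.94 in M1 and 4.75 in M0 naive. The 4 lower subunits were Cox6a2 (-1.32 ± 0.21), Cox7a1 (-0.92 ± 0.19), Cox7a2l (-0.79 ± 0.18) and Cox4i1 (-0.71 ± 0.19), with adjusted p between 1.6e-04 and 0.011.

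Of the calmodulin and IQ-motif genes, 18 of 19 were tested, 3 were higher and 7 lower, with a median of -0.44. Pcp4 went opposite to its relative Pcp4l1, at -0.03 in M1 against -3.97 in M0 naive (3.94 ± 0.49, adjusted p = 1.1e-05), although only 2 of 4 M0 naive arrays were above background. The kinase Camkk1 was well above background only in M1 and at least 4.61-fold higher. Camk1, a calmodulin-dependent kinase, fell by 2.12 ± 0.23 and Iqgap2 by 2.14 ± 0.34 (adjusted p = 2.7e-06 and 1.2e-04). Of the NXPE and neurexophilin family, 4 of 7 genes were tested and only Nxpe4 passed, lower in M1 by -2.10 ± 0.26 (adjusted p = 9.4e-06), with 2 of 4 M1 arrays above background.

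**Figure D2:**
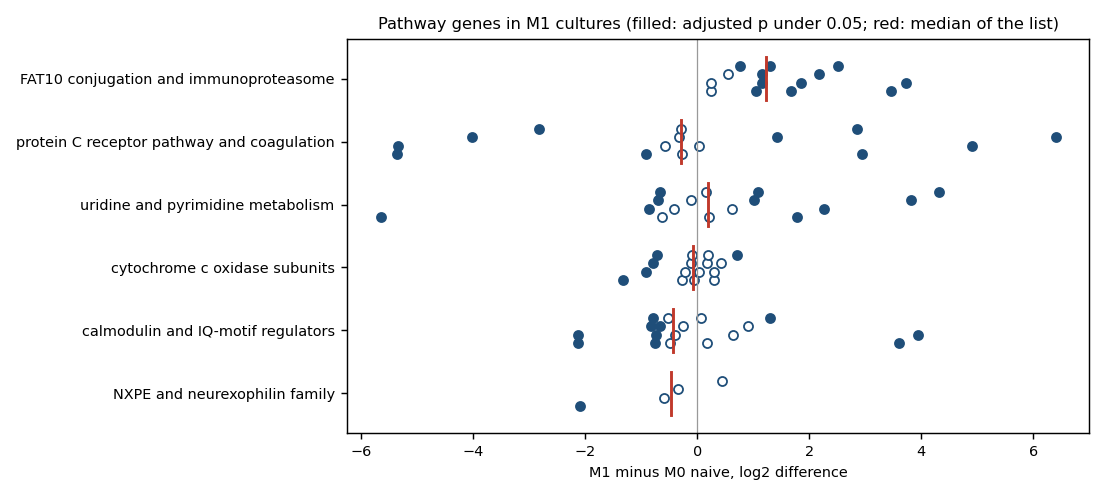
M1 minus M0 naive log2 differences of the genes in 6 partner lists (1 point per gene, filled where the adjusted p was under 0.05, red line at the median of the list). The FAT10 list, which also holds Isg15 and immunoproteasome genes, lies to the right with a median of 1.23. The coagulation list has genes at both ends.

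M2 cultures, given IL-10, differed from M0 naive in 4 of the 5 genes that could be tested. This comparison shares its 4 M0 naive arrays with the one that chose the genes. Over all 29695 genes tested 11.2% passed, 4.32% higher and 6.85% lower. Of 10 macrophage markers 4 were lower in M2 and none higher (median -0.35), as were 4 of 8 neutrophil markers (median -1.01), and their part in these values was not tested. AA467197 was higher in M2 by 3.57 ± 0.21 (11.9-fold, adjusted p = 1.7e-08) and Procr by 0.86 ± 0.21 (1.82-fold, adjusted p = 0.0136). Pcp4l1 was lower, with a log2 difference of -5.03 ± 0.30 (32.6-fold, adjusted p = 2.2e-08). Nxpe5 measured -0.16 ± 0.24 (adjusted p = 0.742), with a 95% interval from -0.67 to 0.34. Within slides, AA467197 kept between 3.28 and 3.65, Procr between 0.68 and 0.95, and Pcp4l1 between -5.31 and -4.58.

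Upp1 passed the test in M2 only narrowly, at 0.67 ± 0.20 (adjusted p = 0.0395). Its adjusted p was 0.0713 to 0.12 without M2 replicate 2, 3 or 4 or without M0 naive replicate 2, 3 or 4, each left out alone, and 0.222 with normexp background correction, where the difference was 0.38. The within-slide differences of Upp1 were 0.80, 0.71 and 0.19.

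Among the partners in M2, Thbd measured -0.49 ± 0.21 (adjusted p = 0.173), Ndufa4 -0.07 ± 0.22 (adjusted p = 0.905), Uba6 0.13 ± 0.31 and Ube2z -0.03 ± 0.23 (adjusted p = 0.857 and 0.96). The coagulation initiators F7 and F3 were higher in M2: F7 by 2.67 ± 0.21 (adjusted p = 3.1e-07), and F3, which was above background on no M0 naive array, at least 10.1-fold. The FAT10 list had 1 higher and 2 lower of 14 tested, and the pyrimidine list none higher and 4 lower of 15, among them Cmpk2 at -2.48 ± 0.21 (adjusted p = 9.3e-07). The coagulation list had 4 higher and 4 lower of 15, the oxidase list 1 higher and none lower of 16, the calmodulin list 1 of each of 15, and the NXPE list 2 lower of 4. In the IL-10 response list the 1 higher gene was the factor Nfil3, by 2.58 ± 0.22 (adjusted p = 1.0e-06), and the 3 lower ones were the receptor gene Il10ra (-1.18), Socs3 (-0.82) and Bcl3 (-0.71).

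M0 post-sepsis differed from M0 naive in 3 of the 5 testable genes, beside 10.7% of 29643 genes tested, 5.41% higher and 5.33% lower. The 4 M0 naive arrays are again those of the choice. Of 10 macrophage markers 7 were lower after sepsis (median -1.10, summed level 770 to 1310 in M0 post-sepsis and 1668 to 2127 in M0 naive), and of 8 neutrophil markers 5 were lower and 1 higher (median -1.52). Their part in these values was not tested. Nxpe5 was higher after sepsis by 1.11 ± 0.24 (2.16-fold, adjusted p = 0.0051), and AA467197 was lower, at -1.28 ± 0.21 (2.43-fold, adjusted p = 7.2e-04). Procr measured -0.48 ± 0.21 (adjusted p = 0.21) and Pcp4l1 -0.11 ± 0.30 (adjusted p = 0.924, 95% interval from -0.76 to 0.54). No M0 post-sepsis array was on slide 1; on slides 2 and 3, Nxpe5 differed by 1.14 and 0.86 and AA467197 by -1.41 and -1.39.

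Upp1 was higher in M0 post-sepsis by 0.72 ± 0.20 (adjusted p = 0.0292), with 1.07 on slide 2 and 0.30 on slide 3. The call was lost, at an adjusted p of 0.0562 to 0.0785, without M0 post-sepsis replicate 1 or 3 or without M0 naive replicate 2, 3 or 4, and with normexp background correction, at 0.52 (adjusted p = 0.0755). Of the partners, Usp18 was lower after sepsis by -1.89 ± 0.20 and Isg15 by -1.52 ± 0.22 (adjusted p = 1.1e-05 and 2.5e-04), 2 of the 4 lower genes of 14 tested in the FAT10 list, where none was higher. Uck2, a uridine kinase, was higher by 2.12 ± 0.24, the oxidase subunit Cox6a2 by 2.19 ± 0.21 and the urokinase gene Plau by 2.43 ± 0.27 (adjusted p = 2.8e-05, 6.3e-06 and 2.5e-05). Thbd measured 0.68 ± 0.21 (adjusted p = 0.0537), Ndufa4 0.38 ± 0.23 (adjusted p = 0.407), Uba6 0.12 ± 0.31 and Ube2z 0.03 ± 0.23 (adjusted p = 0.916 and 0.975). Of the other lists, coagulation had 4 higher and 1 lower of 15 tested, pyrimidine 3 and 2 of 16, oxidase 2 and 1 of 16, calmodulin 1 and none of 15, and NXPE 1 of each of 4.

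M2 against M0 post-sepsis takes its means from no array that chose the genes, although the fit shares its estimate of the spread with those arrays. Of the 5 genes tested 4 passed, 2 higher and 2 lower in M2, beside 18.2% of 29690 genes, 7.03% higher and 11.1% lower. The groups differ both in IL-10 and in sepsis of the marrow donors, whose parts this comparison cannot tell apart. Of 10 macrophage markers 4 were higher and 2 lower in M2 (median 0.65). Of 6 tested neutrophil markers 1 was higher and 1 lower (median 0.47). Their part in these values was not tested. AA467197 was higher in M2 by 4.85 ± 0.21 (28.9-fold, adjusted p = 4.6e-10) and Procr by 1.34 ± 0.21 (2.53-fold, adjusted p = 3.0e-04). Pcp4l1 was lower by -4.91 ± 0.30 (30.2-fold, adjusted p = 2.2e-08) and Nxpe5 by -1.27 ± 0.24 (2.42-fold, adjusted p = 0.0012). Upp1 measured -0.04 ± 0.20 (adjusted p = 0.91), with a 95% interval from -0.47 to 0.38. On slides 2 and 3, the only ones with both groups, the differences were 5.03 and 4.67 for AA467197, 1.65 and 1.07 for Procr, -4.46 and -5.03 for Pcp4l1, and -1.10 and -1.41 for Nxpe5. Thbd was lower in M2 as well, by -1.18 ± 0.21 (adjusted p = 0.001), as were Tk1 (-3.56 ± 0.23) and F13a1 (-4.95 ± 0.28, adjusted p = 3.0e-08 and 7.9e-09). The pyrimidine list had none higher and 8 lower of 16 tested, coagulation 6 higher and 5 lower of 14, FAT10 2 higher and none lower of 14, oxidase 2 lower of 16, calmodulin 3 lower of 15 and NXPE 2 lower of 4.

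**Figure D3:**
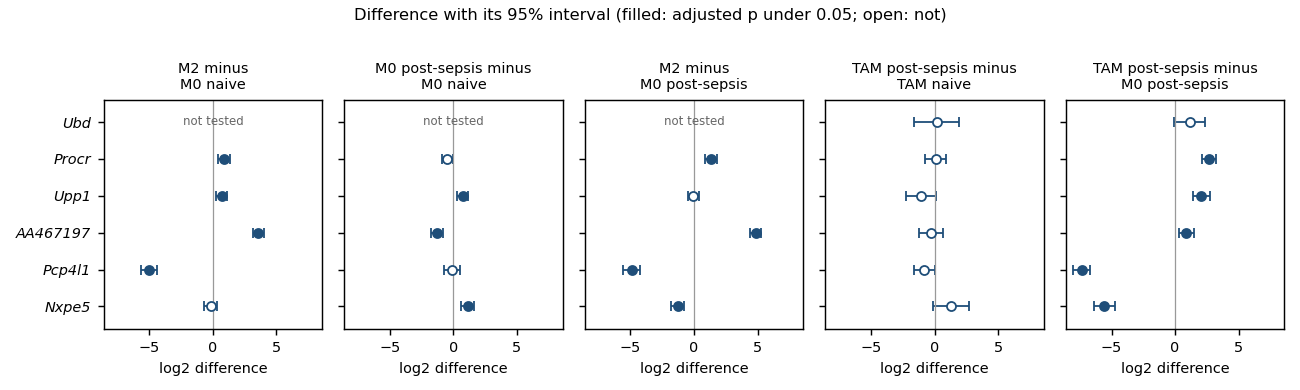
Log2 differences of the 6 genes in the 5 tested comparisons, each with its 95% interval from the limma fit; filled points had an adjusted p under 0.05. AA467197 is to the right and Pcp4l1 to the left in both M2 panels, and no point is filled between the TAM groups.

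In TAM, none of the 6 genes passed limma's test between post-sepsis and naive mice, where 0% of 28911 genes passed although 11205 had an unadjusted p under 0.05. Upp1 measured 0.12 ± 0.36 in TAM post-sepsis and 1.17 ± 1.11 in TAM naive (SD, n = 4 and 3), a difference of -1.05 ± 0.50 (SE, adjusted p = 0.153). Nxpe5 measured 1.28 ± 0.62 higher after sepsis (adjusted p = 0.158) and Pcp4l1 -0.80 ± 0.36 (adjusted p = 0.135). Procr at 0.11 ± 0.35, AA467197 at -0.27 ± 0.40 and Ubd at 0.18 ± 0.76 had adjusted p between 0.609 and 0.868. No gene of any partner list passed.

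The TAM count changed with either block and with 1 array left out. With the replicate number as a block 10306 genes passed, although same-numbered arrays were not paired by the labels or the data. With the slide as a block 10244 genes passed, among them Upp1 at -1.24 (adjusted p = 0.0263) and Nxpe5 at 1.03 (adjusted p = 0.0229), and without TAM post-sepsis replicate 2 9923 passed, among them Nxpe5 at 1.72 (adjusted p = 0.0261). Within slides 1, 2 and 3 Upp1 differed by -1.97, -0.37 and -1.12, and Nxpe5 by 1.35, 1.00 and 0.63. The summed level of the macrophage markers was 72.4 to 215 in TAM post-sepsis and 230 to 400 in TAM naive, a sum led by Itgam (means 5.72 and 7.84). The means of 7 of the 10 macrophage markers were higher in TAM post-sepsis, the median difference was 0.25, and none passed the test. The summed level of 8 B cell markers was 3.56 to 11.4 in TAM post-sepsis and 18.3 to 53.2 in TAM naive. For 11 T and NK cell markers it was 8.22 to 17.3 in TAM post-sepsis and 17.8 to 33.3 in TAM naive. Their part in these values was not tested, and in bulk RNA fewer cells of a type and less RNA per cell cannot be told apart.

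The sepsis differences in TAM and in M0 were then set against each other in 1 fit. Its M0 naive arrays are those that took part in the choice of the genes. Upp1 was the 1 of the 6 genes that passed, beside 5.46% of 31748 genes: sepsis minus naive was -1.05 in TAM and 0.72 in M0, which makes -1.77 ± 0.47 (adjusted p = 0.0338). With the slide as a block the value was -1.98 (adjusted p = 0.0136). The call was lost with the replicate block (-1.74, adjusted p = 0.0541), without the filter on dim probes (-1.77, adjusted p = 0.0529) and with TAM naive replicate 2 kept (-1.64, adjusted p = 0.0705). It was also lost, at an adjusted p between 0.0517 and 0.0771, without TAM post-sepsis replicate 3, TAM naive replicate 1 or 3, M0 post-sepsis replicate 1 or 3 or M0 naive replicate 2 or 4, each left out alone, and without TAM naive replicate 3 the value was -1.15. AA467197 measured 1.01 ± 0.41 (adjusted p = 0.132). It passed without TAM post-sepsis replicate 2 (1.19, adjusted p = 0.0489) or without TAM naive replicate 3 (1.42, adjusted p = 0.0412).

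TAM post-sepsis differed from M0 post-sepsis in 5 of the 6 genes, 3 higher and 2 lower. The background was high, with 43.4% of 29871 genes called, 16.3% higher and 27% lower, and a median log2 difference of -0.34 over all genes, which quantile scaling moved to -0.18. Procr was higher in TAM by 2.68 ± 0.26 (6.40-fold, adjusted p = 2.9e-08) and Upp1 by 2.05 ± 0.32 (4.14-fold, adjusted p = 2.6e-05). Pcp4l1 was lower by -7.35 ± 0.32 (163-fold, adjusted p = 1.7e-13) and Nxpe5 by -5.56 ± 0.40 (47.2-fold, adjusted p = 3.4e-10). On slides 2 and 3 the differences were 3.67 and 1.69 for Procr, 1.58 and 1.90 for Upp1, -6.82 and -7.70 for Pcp4l1, and -5.80 and -7.06 for Nxpe5.

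AA467197 was higher in TAM post-sepsis by 0.89 ± 0.28 (adjusted p = 0.0146), although the groups overlapped, with 1.72 on slide 2 and 0.04 on slide 3. The call was lost without TAM post-sepsis replicate 3 (0.71, adjusted p = 0.0613) or M0 post-sepsis replicate 3 (0.76, adjusted p = 0.05). Ubd measured 1.15 ± 0.58 (adjusted p = 0.113), but it entered the test through TAM post-sepsis alone, as no M0 post-sepsis array was above background. As a bound it was at least 1.13-fold higher in TAM post-sepsis. Without TAM post-sepsis replicate 2, the only array of that group not above background, the difference was 1.70, which the choice of that array raises.

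Markers of other cell types differed beside these values. The summed level of 6 melanocyte markers was 1857 to 2329 in TAM post-sepsis and 6.74 to 11.7 in M0 post-sepsis, where Tyrp1 and Dct were above background on no array. For 6 fibroblast markers it was 238 to 1207 in TAM post-sepsis and 0.79 to 2.43 in M0 post-sepsis, and for 8 endothelial markers 21.8 to 33.1 and 11.5 to 39.2. That of 6 erythroid markers was 19.3 to 663 in TAM post-sepsis and 0.27 to 0.67 in M0 post-sepsis. Of 8 endothelial markers, 7 to 8 were above background on a TAM post-sepsis array and 3 to 4 on an M0 post-sepsis array, and Tie1, Emcn, Esam and Tek were above background on no M0 post-sepsis array. Their part in the higher Procr and Upp1 and in the lower Pcp4l1 and Nxpe5 was not tested. Macrophage markers summed to 72.4 to 215 in TAM post-sepsis and 770 to 1310 in M0 post-sepsis.

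Among the partners in this comparison, the thrombin receptor F2r was above background on all 4 TAM post-sepsis arrays and no M0 post-sepsis array, at least 28.4-fold higher, and Gas6 was lower by -5.65 ± 0.26 (adjusted p = 3.9e-13). Ndufa4 was higher by 1.34 ± 0.22 (adjusted p = 3.8e-05) and its relative Ndufa4l2 by 6.07 ± 0.60 (adjusted p = 5.3e-08), with 1 of 4 M0 post-sepsis arrays above background. Psmb9 and Psmb8 of the immunoproteasome were lower, by -3.16 ± 0.25 and -3.61 ± 0.30 (adjusted p = 1.4e-09 and 3.6e-09), 2 of 8 lower genes of 14 tested in the FAT10 list. Uba6 was lower by -0.93 ± 0.28 (adjusted p = 0.0125), Ube2z measured 0.45 ± 0.21 (adjusted p = 0.0822) and Thbd -0.20 ± 0.43 (adjusted p = 0.722). The calmodulin list had 1 higher and 10 lower of 16 tested, coagulation 6 and 8 of 17, pyrimidine 4 and 5 of 19, oxidase 4 and 3 of 17, and NXPE 2 and 1 of 4.

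The 6 genes were not alike in their full profiles. Likeness was measured over the 23 arrays as the root mean square (RMS) difference of levels after each gene's own mean was taken off, among 18535 named genes, and it is a description without a test. These arrays include the M1 and M0 naive arrays that chose the genes. Likeness between genes that were high in M1, or between genes that were low there, is therefore in part fixed by the choice. Procr and Upp1 were the closest pair of the 6, at 0.98 log2 units, then Pcp4l1 and Nxpe5 at 1.70 and Procr and AA467197 at 1.75. Procr was nearest to Nos2 (0.83), the inducible nitric oxide synthase, then to the lipid droplet gene Hilpda (0.89) and the cytokine inhibitor Socs3 (0.93). Upp1 was nearest to Pdpn (0.63), the podoplanin gene, then to the serotonin receptor Htr7 (0.70) and Hilpda (0.70).

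AA467197 was nearest to Tarm1 (0.83), an activating receptor of myeloid cells, the cationic amino acid transporter Slc7a2 (0.86) and Slamf1 (0.89), a receptor of immune cells. Like AA467197, Slc7a2 stood second highest in M2, at a mean of 1.29 there and 4.03 in M1, against -3.91 in M0 naive. The nearest genes of Ubd, the formyl peptide receptor Fpr1, the cytokine Il1a and the GTPase Gbp4, were 2.06 to 2.20 log2 units away, the widest distances. Ubd also varied most, with an RMS of 4.97 about its own mean, against 2.54 to 3.67 for the other genes chosen. The measure is not scaled for that variation. Nxpe5 was nearest to Rgs18 (0.75), a regulator of G protein signalling, then Rab3il1 (1.09) and the mannose receptor Mrc1 (1.14). Pcp4l1 was nearest to the receptor gene Gpr34 (1.33), Gm5086 (1.39) and Rgs18 (1.40). Mrc1 averaged -4.63 in M1 and 6.77 in M2, against 4.58 in M0 naive.

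**Figure D4:**
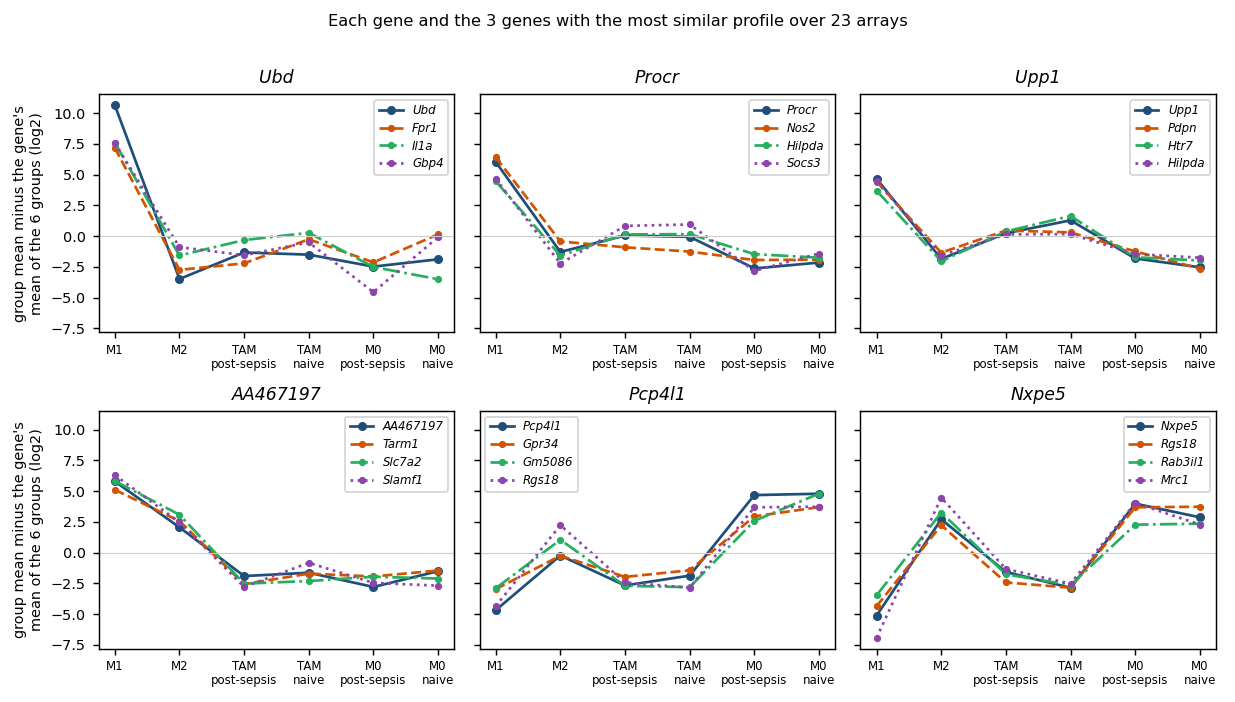
Group means of each of the 6 genes (solid line) and of the 3 genes with the most similar profile (broken lines), each minus its mean of the 6 groups, in log2 units. Lines join groups for reading only. The match is closest for Upp1 and Pdpn, at an RMS difference of 0.63, and widest for Ubd.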

How the data were processed

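The files hold spot values of 24 Agilent 1-colour arrays on 3 slides. Per the file headers, the deposited intensity of each spot is Feature Extraction's processed signal, background-subtracted and detrended within the array, with probes placed on mm9; nothing in them scales arrays to each other. The headers give software version 10.7.3.1, and the submitters' processing notes give 12.5. The other deposited columns used are the authors' flags for control, background, saturation and non-uniform spots. The authors' value table was not used.

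Of 62976 spots, 59305 were not controls; 81 non-uniform spot values were left out and the spots of 432 probes were averaged. Log2 intensities were centred on each array's 75th percentile. Names came from RefSeq (GRCm38.p6), by accession for 27656 probes, by symbol for 3401 and by synonym for 321; 1775 kept the file's name and 22528 had none. A gene with several probes is given by its brightest over the 23 arrays. Tests took genes whose probe had the scanner software's flag for signal above background in 3 or more arrays of either group. Where a group was above background on no array, folds are bounds ("at least") against the lowest signal well above background. limma 3.58.1 in R 4.3.3 gave two-sided moderated tests with Benjamini-Hochberg adjustment over all genes kept, at 0.05. Comparisons among marrow cultures were fitted on their arrays, the TAM comparison on its own arrays, and those across both on all 23. The fit was tested on simulated data. Array number limits precision.

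The 6 genes, the partner and marker lists and the rule for named genes were chosen with earlier results of these data known. The rule took from each partner list up to 4 called genes of smallest p in M1 versus M0 naive and up to 2 in another comparison, relatives of the 6 genes (Ndufa4, Pcp4, Thbd, Upp2, Uba6, Ube2z), and 3 nearest genes. Alternatives were quantile scaling, normexp background with an offset of 50, no filter, every probe, slide or replicate number as a block, each array left out, and TAM naive replicate 2 kept. Same-numbered samples of 2 groups did not deviate together in every pair (correlations from -0.53 to 0.68), so the numbers were not taken as pairs.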

Additional observations from a re-analysis of the deposited data

Results flagged for a closer look

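Upp1 was flagged because the effect of sepsis differed between TAM and M0 cultures in a test of that difference: -1.77 on the log2 scale (adjusted p = 0.0338), from -1.05 in TAM and 0.72 in M0. The M0 naive arrays behind the 0.72 took part in the choice of the genes. TAM naive replicate 3, at 2.40, was the highest TAM array. Without that array the value was -1.15 and the call was lost. The part of the other cells in the TAM samples was not tested. Of 30 sets of 4 arrays, 5 groups for each of the 6 genes, none held an array far from the others, where chance flags about 1 in 20.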

How the results depend on the processing

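No called value changed sign under the alternatives run. Uncalled values near 0 did with 1 array left out: AA467197 (-0.52 to 0.14), Procr (-0.13 to 0.37) and Ubd (-0.19 to 0.73) between the TAM groups, Upp1 between M2 and M0 post-sepsis (-0.14 to 0.11), Pcp4l1 between M0 post-sepsis and M0 naive (-0.29 to 0.004), and the interaction of Nxpe5 (-0.22 to 0.61). Others did with quantile scaling (Upp1 between M2 and M0 post-sepsis, 0.06, and Procr between the TAM groups, -0.19), normexp (Ubd between the TAM groups, -0.10, and the interactions of Ubd, -0.21, and Nxpe5, -0.43), the slide as a block (the interaction of Nxpe5, -0.08) and TAM naive replicate 2 kept (AA467197, 0.52, and Ubd, -0.38, between the TAM groups). Of 39 values of the 6 genes per setting, all kept their call (for M1 against M0 naive, their value within 1 SD) with every probe tested, 38 with quantile scaling, 37 with the slide as a block, 36 without the filter, 35 with the replicate block and 33 with normexp background. Upp1 in M2 against M0 naive lost its call with normexp (0.38), without the filter and with the replicate block (0.67 in both), and ranged from 0.60 to 0.77 with 1 array left out. Upp1 in M0 post-sepsis against M0 naive lost it with normexp (0.52), without the filter and with the replicate block (0.72 in both), and ranged from 0.57 to 0.81. The interaction of Upp1 lost its call without the filter (-1.77), with the replicate block (-1.74) and with TAM naive replicate 2 kept (-1.64), and ranged from -2.24 to -1.15; that of AA467197 ranged from 0.76 to 1.42. The TAM comparison called 10244 genes with the slide as a block, 10306 with the replicate block and 0 to 9923 with 1 array left out. With the slide as a block Upp1 (-1.24) and Nxpe5 (1.03) passed there, and Nxpe5 also with the replicate block (1.72), with 0.89 to 1.72 over arrays left out. Between TAM post-sepsis and M0 post-sepsis, Ubd passed with quantile scaling (1.80) and ranged from 0.72 to 1.70, but no M0 post-sepsis array was above background for it. In that comparison AA467197 lost its call with TAM naive replicate 2 kept (0.89) and ranged from 0.71 to 1.07, and 7052 genes passed with that array kept. The interaction called 3079 genes with quantile scaling, which moved its median over all genes from -0.26 to -0.04, 713 with TAM naive replicate 2 kept, and 825 to 5563 with 1 array left out. The causes were not tested. Normexp, whose offset of 50 shrinks differences from dim signal, also made the M1 differences of Ubd (10.4), Upp1 (6.26), Pcp4l1 (-6.41) and Nxpe5 (-5.07) smaller. Same-numbered arrays were not paired by the labels or the data, and the block changed no call other than those above. Dim signal limits Ubd outside M1 and Pcp4l1 and Nxpe5 in M1.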

Other observations

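On TAM naive replicate 2, the array left out for low RNA amount and quality, the 75th percentile was 49.2 intensity units and 41.9% of spots were well above background. Procr (-0.07) and Upp1 (0.64) were above background there, and the other 4 genes were not.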
